A study of Danio rerio with 5 samples.

Results

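The skeletal muscle cells described here are 78 of 13786 kept barcodes in 2 single-cell libraries of pdgfrb reporter-positive cells sorted from zebrafish larvae. A barcode was kept if it had at least 500 genes detected and at most 10% of its UMIs (unique molecular identifiers, the counted molecules) in the 13 mitochondrial protein genes. It counted as a muscle cell if at least 5 of 7 markers (ckma, mylpfa, tnnt3b, acta1b, myhz2, pvalb1 and tnni2a.4) each reached 10 UMIs. The cells were thus chosen by the UMI counts of these 7 genes and of the genes that enter the limits, so all values of muscle cells against other barcodes are given as a description, without a test. Library 1 held 29 such cells of 5935 kept barcodes, which is 0.489% (exact binomial 95% interval 0.327 to 0.701%), and library 2 held 49 of 7851, which is 0.624% (0.462 to 0.824%). The mean share was 0.556 ± 0.0958% (SD, n = 2 libraries). Intervals cover counting error only.

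All samples came from larvae at 5 dpf (days post fertilization) that were dissociated and sorted for a fluorescent reporter of pdgfrb, the receptor for the growth factor PDGF-B found on mural cells and many mesenchymal cells. In the 3 bulk libraries the reporter line was Tg(pdgfrb:citrine)s1010 and the larvae carried the um148 allele, which the strain label writes as an allele of pdgfb; the authors set them against wild-type libraries, whose values were not used here beyond the authors' own comparison. In the 2 single-cell libraries, made with the 10x 3′ v3 kit, the line was Tg(pdgfrb:egfp)ncv22 and no mutant allele was named. All groups thus carried a pdgfrb reporter, a sort keeps what fluoresces and not a cell type, and the number of larvae per library is not given in the sources used here. Nothing states that libraries of a group came from separate clutches, so their spread may be partly technical.

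Skeletal muscle fibres contract when myosin motors of the thick filament pull on actin filaments that are anchored at Z-discs. Nerve input at the neuromuscular junction releases calcium from the sarcoplasmic reticulum, calcium binds troponin C on the thin filament, and troponin I and tropomyosin uncover the actin sites; calcium pumps and parvalbumins then lower calcium again. Zebrafish trunk muscle has a thin superficial layer of slow fibres and a large deep mass of fast fibres, and the 2 kinds use different genes for myosin, troponin and tropomyosin. Muscle fibres are not among the cells for which pdgfrb is usually used as a marker.

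The rule asks for absolute UMI counts and so favours deep barcodes. Muscle cells were deeply sampled. They had a median of 21708 UMIs and 2334 genes in library 1 and 26711 UMIs and 2655 genes in library 2, against 5811.5 and 6300.5 UMIs and 1415.5 and 1512.5 genes in other kept barcodes. They made up 1.39% and 2.07% of the kept UMIs, 733901 and 1524250 UMIs in all. Their median mitochondrial share was 4.47% and 3.83%, against 3.33% and 3.46% in other barcodes. The libraries shared 30 called barcodes and 11 kept barcodes, none of them a muscle cell. Markers of another cell type (at least 3 of a type's markers with 2 UMIs each) were carried by 6 of 29 and 15 of 49 muscle cells: fibroblast markers by 4 and 11, tenocyte markers by 4 and 8, epidermis markers by 3 and 6, smooth muscle markers by 3 and 5, and neuron markers by 0 and 0. Among other kept barcodes 80.7% and 83.1% carried such a set, with fibroblast markers in 61.5% and 63.1%. Cardiomyocyte markers summed to 0 and 27.6 CPM in muscle cells, against 60.6 and 80.4 CPM in other barcodes, and 5 of 8, among them myl7 and myh6, had 0 UMIs in muscle cells of both libraries.

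The cells were also described with genes outside the rule. Of 26 genes of fast fibres that the rule did not use, 25 met the size rule for higher genes. The size rule asks for at least 4-fold the CPM of other kept barcodes and at least 20 CPM. It also asks for a UMI in at least 10% of muscle cells, and each limit must be met in both libraries. Several of the 26 genes are copies of the markers, and all 7 genes of slow fibres at 20 CPM were higher too. The count therefore does not separate fast from slow fibres. CPM here are UMIs summed over a class and scaled to a common total of 1000000; the kit counts a molecule once at its 3′ end, so CPM need no division by gene length. Over all genes the rule named 390 higher genes, 19.3% of the 2025 that passed the level and detection minimum, and 766 lower genes, 21.3% of 3601. Nothing is read from the list counts below beyond description, because the rule's own cells made the contrast. The count of higher genes was 400 without the muscle cells that carried markers of another type and 400 without the barcodes of highest doublet score. The count of lower genes was 1178 and 1230 under these settings, and 1330 in library 1 alone.

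**Figure D1:**
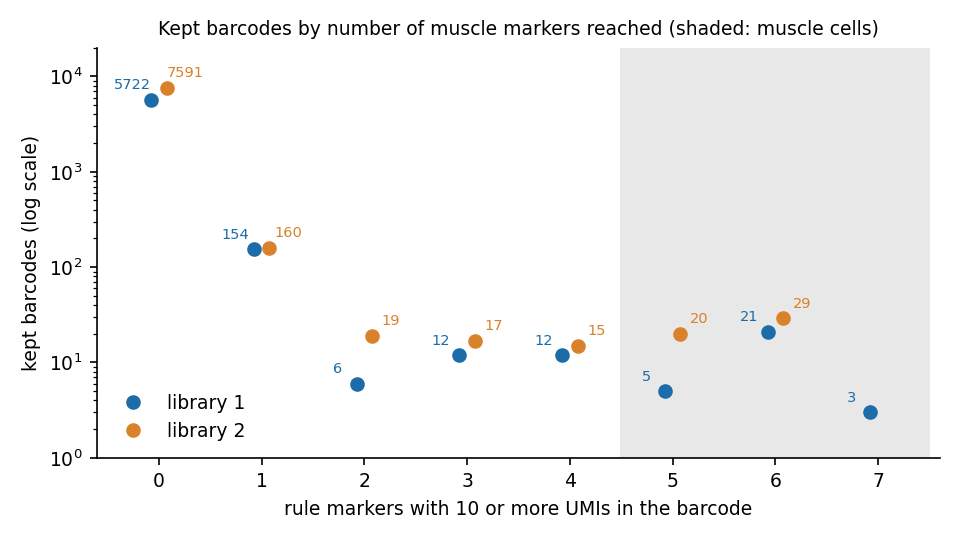
Kept barcodes (log scale) by the number of the 7 markers that reached 10 UMIs, for library 1 (blue) and library 2 (orange), with the muscle cells shaded and no barcode of library 2 at 7. Most barcodes reached 0 markers (5722 and 7591), few reached 2 to 4, and 21 and 29 barcodes reached 6.

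The 7 markers differed widely among the muscle cells. Mylpfa (LL0000019861), the regulatory myosin light chain of fast fibres, had 99 to 1836 (median 865) and 50 to 2986 (median 1089) UMIs per cell in libraries 1 and 2. Tnnt3b (LL0000030781), fast troponin T, had 27 to 864 (median 416) and 14 to 1477 (median 478) UMIs, and ckma (LL0000005727), muscle creatine kinase, had 24 to 349 (median 186) and 25 to 881 (median 214) UMIs. These 3 markers passed 10 UMIs in every muscle cell of both libraries. Myhz2 (LL0000019839), a fast myosin heavy chain, had 1 to 354 (median 120) and 0 to 1709 (median 199) UMIs, and acta1b (LL0000000217), a skeletal alpha actin, had 0 to 279 (median 23) and 0 to 545 (median 31). Pvalb1 (LL0000022946), a calcium-binding parvalbumin, had 2 to 3748 (median 396) and 0 to 6245 (median 86) UMIs, so single cells lay anywhere between the lowest and the highest counts of the set. Tnni2a.4 (LL0000030767), a fast troponin I, had 0 to 642 (median 1) and 0 to 1206 (median 1) UMIs and reached 10 in 7 of 29 and 8 of 49 cells only.

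Around the threshold the shares of marker UMIs overlapped. The 5 and 20 muscle cells with exactly 5 markers had a median of 10.4% and 5.57% of their UMIs in the 7 markers (1.35 to 12.4% and 1.52 to 12.1%), and their marker of rank 5 had a median of 38 and 22.5 UMIs. The 12 and 15 barcodes just outside, with 4 markers, had a median of 2.26% and 1.50% of UMIs in the markers (0.409 to 6.07% and 0.605 to 8.92%), and their marker of rank 5 had a median of 4.5 and 4 UMIs. The rule itself fixes that the marker of rank 5 lies at 10 UMIs or more inside and below 10 outside.

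In muscle cells the contractile genes dominated the counts. The highest was actc1b (LL0000000222), an alpha actin, with 68121 and 65708 CPM in muscle cells of libraries 1 and 2, against 355 and 352 CPM in other barcodes, and a UMI in every muscle cell. It was followed by mylpfa at 39239.6 and 34659.7 CPM and by the parvalbumins pvalb2 (29271 and 23070.4 CPM), pvalb4 (27143 and 21809 CPM) and pvalb1 (25971 and 22853 CPM). Next came tnnt3b at 18278 and 16369 CPM, the essential myosin light chains mylz3 at 13976 and 13777 CPM and myl1 at 12164 and 13349.5 CPM, and nme2b.2, a nucleoside diphosphate kinase, at 11672 and 10169 CPM. The mitochondrial gene mt-co2, a subunit of cytochrome oxidase, was the tenth at 11431 and 10032 CPM, against 8453 and 8841 CPM in other barcodes. The other barcodes include those with 1 to 4 markers at 10 UMIs, so their levels hold muscle transcripts of barcodes near the rule. In barcodes with no marker at 10 UMIs actc1b had 79.7 and 83.5 CPM. With only these as other barcodes, 406 genes were higher, among them all 390 of the size rule, and 789 were lower.

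**Figure D2:**
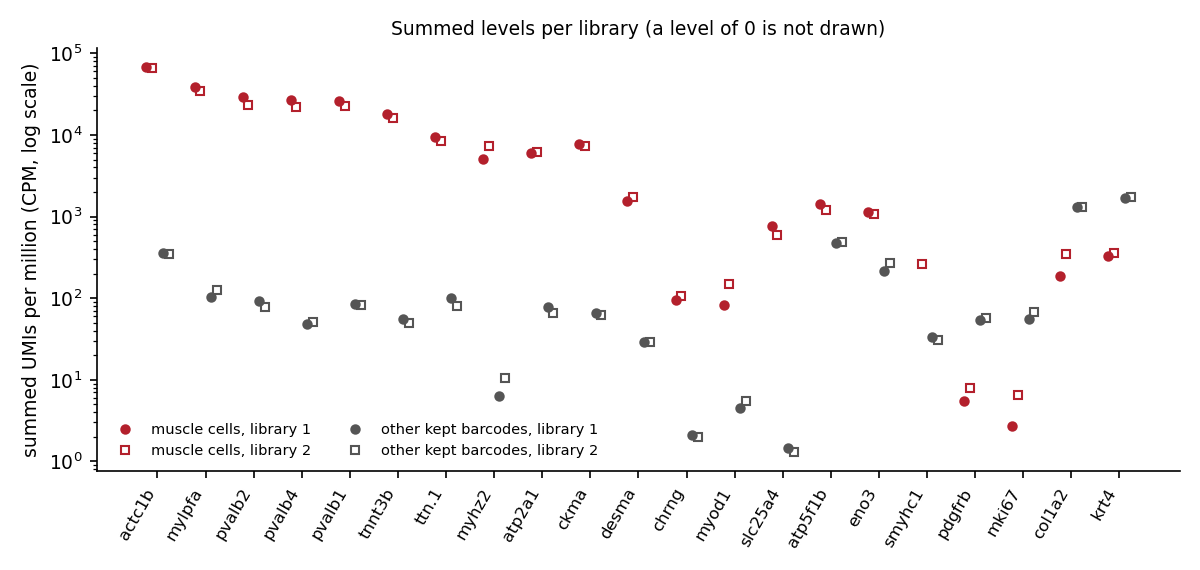
Summed CPM (log scale) of 21 genes in muscle cells (red) and other kept barcodes (grey), with filled circles for library 1 and open squares for library 2. Contractile, calcium and creatine kinase genes of muscle cells stand far above other barcodes in both libraries, with actc1b at 68121 and 65708 CPM, while pdgfrb, mki67, col1a2 and krt4 stand below them; smyhc1 was at 0 in muscle cells of library 1.

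Of 28 thick filament genes in the files, 21 reached 20 CPM in muscle cells of both libraries, and all 21 were among the higher genes. The titin genes ttn.1 and ttn.2, which code for the giant spring that spans the sarcomere, had 9505 and 8543 CPM and 8929 and 8134 CPM in muscle cells of libraries 1 and 2, and ttn.1 had 99.3 and 79.2 CPM in other barcodes. The log2 ratio of ttn.1 was 6.67 ± 0.12 (mean ± SD, n = 2 libraries, as for the ratios that follow). Among fast myosin heavy chains, myhb had 7824 and 5919.6 CPM in muscle cells of libraries 1 and 2, against 7.58 and 22.7 CPM in other barcodes, and myhz2 had 5142 and 7364 CPM in muscle cells, against 6.27 and 10.4 CPM in other barcodes. Myhz1.1 had 2959.5 and 1871 CPM in muscle cells, against 4.21 and 4.36 CPM in other barcodes. Of the myosin-binding protein genes, mybphb had 749 and 481 CPM and a UMI in 29 of 29 and 49 of 49 cells, and mybpc1 had 669 and 565 CPM and a UMI in 22 of 29 and 39 of 49 cells. The M-band genes myom1a and myom2a, which cross-link thick filaments, had 346 and 319 CPM and 488 and 432 CPM. The smallest ratios among genes at 20 CPM were those of mybpc3, a cardiac-type myosin-binding protein C in mammals, at 4.98- and 8.09-fold, and of myom1b at 13.4- and 22.4-fold. How reads shared by close copies of these genes were assigned is not given in the sources used here, so the split between myhz1.1, myhz1.2 and myhz1.3, and between other near-identical copies, is uncertain.

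Of 39 thin filament genes, 23 reached 20 CPM and all 23 were among the higher genes. Tropomyosin genes, whose products lie along actin, differed in their ratios: tpm1 had 5779 and 5072 CPM in muscle cells of libraries 1 and 2, against 412 and 448 CPM in other barcodes, and tpm3 had 2168 and 2179 CPM in muscle cells, against 205 and 229 CPM in other barcodes. By contrast tpma, another tropomyosin, had 3733 and 3027 CPM in muscle cells, against 16.2 and 15.5 CPM in other barcodes, a log2 ratio of 7.73 ± 0.17 where that of tpm1 was 3.66 ± 0.22. Smooth muscle markers were carried by 557 and 767 of the other barcodes, of which 556 and 764 were summed as a class. In these tpm1 had 2121 and 2387 CPM and tpma 20.7 and 13.9 CPM. Troponin C is coded by tnnc2 in fast fibres, which had 3924 and 3331 CPM in muscle cells, against 17.1 and 15.6 CPM in other barcodes, and was found in every muscle cell. Troponin I came from several copies: tnni2b.1 at 6888 and 7913 CPM, tnni2a.1 at 6349.6 and 5459.7 CPM, tnni2a.4 at 3874 and 2384 CPM and tnni2b.2 at 1316 and 1153 CPM. The last had the largest ratio of the list, 1052- and 966-fold. Nebulin (neb), the ruler of the thin filament, had 1647 and 1564 CPM in muscle cells, against 19.3 and 16.4 CPM in other barcodes.

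Of 40 genes of the Z-disc and of sarcomere assembly, 33 reached 20 CPM and 31 were higher. Desmin (desma), the intermediate filament that links Z-discs, had 1569.7 and 1737 CPM in muscle cells of libraries 1 and 2, against 29.2 and 28.8 CPM in other barcodes. Titin-cap (tcap) had 1333 and 1592 CPM in muscle cells, against 74.4 and 70.21 CPM in other barcodes, and actn3b, the alpha actinin of fast fibres that anchors actin, had 1099.6 and 949 CPM in muscle cells, against 4.48 and 4.10 CPM in other barcodes. The log2 ratios were 5.83 ± 0.12 for desma, 4.33 ± 0.24 for tcap and 7.90 ± 0.06 for actn3b, so these Z-disc genes differed more from each other than between libraries. Smyd1a, a methyltransferase needed for myosin assembly, and the chaperone hsp90aa1.1 had 435 and 428 CPM and 288 and 291 CPM. Xirp2a, a large actin-binding repeat protein, had 531 and 491 CPM in muscle cells, against 27.8 and 28.9 CPM in other barcodes.

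Of 38 genes of excitation-contraction coupling and calcium handling, 26 reached 20 CPM and 25 were higher. The calcium pump of the fast sarcoplasmic reticulum is coded by atp2a1, at 6048 and 6147 CPM in muscle cells of libraries 1 and 2, against 77.1 and 66.3 CPM in other barcodes, and by atp2a1l, at 2153 and 1868 CPM in muscle cells, against 3.56 and 2.35 CPM in other barcodes. Calsequestrins store calcium inside the reticulum, and casq2 had 1425 and 1226 CPM in muscle cells, against 15.3 and 12.7 CPM in other barcodes. Tmem38a, a potassium channel of the same membrane, had 764 and 699 CPM, and srl, sarcalumenin, had 548 and 512 CPM. The release channel ryr1b had 243 and 209 CPM in muscle cells, against 1.58 and 1.71 CPM in other barcodes, and its copy ryr1a had 135 and 165 CPM in muscle cells, against 8.47 and 6.69 CPM in other barcodes. Pvalb3, at a lower level than pvalb1, pvalb2 and pvalb4, had 695 and 332 CPM and a UMI in 17 of 29 and 12 of 49 cells. The smallest ratio among the 25 higher genes was that of scn4ba, an auxiliary beta subunit of sodium channels, at 6.07- and 5.70-fold.

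Of 11 genes of the neuromuscular junction, 9 reached 20 CPM and all 9 were higher. The gamma subunit of the acetylcholine receptor, chrng, which in mammals is the fetal form, had 94.0 and 105 CPM in muscle cells of libraries 1 and 2, against 2.08 and 1.99 CPM in other barcodes. The epsilon subunit, chrne, which in mammals replaces it in the adult, had 53.1 and 40.7 CPM in muscle cells, against 0.962 and 1.39 CPM in other barcodes. Both subunits were thus present in muscle cells, chrng in 21 of 29 and 40 of 49 cells and chrne in 20 of 29 and 30 of 49 cells. The alpha subunit chrna1, the delta subunit chrnd and the beta subunit chrnb1 had 101 and 82.0 CPM, 74.9 and 76.1 CPM and 61.3 and 72.8 CPM. Ache, the acetylcholinesterase, had 146 and 116 CPM in muscle cells, against 8.91 and 8.19 CPM in other barcodes, and musk, the receptor kinase that clusters acetylcholine receptors, had 46.3 and 45.9 CPM in muscle cells, against 4.91 and 4.72 CPM in other barcodes. Utrn, utrophin, was the exception among the better-known genes of the list, with 27.3 and 15.1 CPM in muscle cells, against 30.2 and 27.7 CPM in other barcodes.

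Energy genes were mixed. Of 11 creatine and adenylate genes 5 were higher: ckma and ckmb, at 7671 and 7367 CPM and 6452 and 6145 CPM, the mitochondrial creatine kinase ckmt2b at 444 and 381 CPM, adenylate kinase ak1 at 4532 and 4664 CPM and AMP deaminase ampd1 at 146 and 134 CPM. The brain-type creatine kinase ckbb had 43.6 and 23.6 CPM in muscle cells, against 153 and 157 CPM in other barcodes. Of 34 genes of glycolysis and glycogen, 21 reached 20 CPM, 9 were higher and 4 were lower. The gene copies split: pgam2, the muscle phosphoglycerate mutase, had 441 and 369 CPM in muscle cells, against 5.85 and 6.24 CPM in other barcodes, aldoab had 1109 and 1046 CPM in muscle cells, against 18.5 and 21.8 CPM in other barcodes, and gapdh had 1239 and 918 CPM in muscle cells, against 64.2 and 57.3 CPM in other barcodes. In the opposite direction gapdhs, another glyceraldehyde-3-phosphate dehydrogenase gene, had 70.9 and 97.1 CPM in muscle cells, against 492 and 543 CPM in other barcodes, and pgam1a, another phosphoglycerate mutase gene, had 19.1 and 20.3 CPM in muscle cells, against 160.5 and 208 CPM in other barcodes. The pyruvate kinase copies pkmb and pkma parted in the same way, pkmb with 373 and 299 CPM in muscle cells, against 4.58 and 4.26 CPM in other barcodes, and pkma with 4.09 and 12.5 CPM in muscle cells, against 67.4 and 87.2 CPM in other barcodes. Aldocb, an aldolase copy, was the fourth lower gene. Pfkma, the muscle phosphofructokinase, had 54.5 and 47.9 CPM in muscle cells, against 0.404 and 0.194 CPM in other barcodes.

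Of 46 genes of oxidative metabolism, 36 reached 20 CPM but 4 were higher. The beta subunit of the mitochondrial ATP synthase, atp5f1b, had 1410.3 and 1216 CPM in muscle cells of libraries 1 and 2, against 471 and 487 CPM in other barcodes, a ratio of 2.99- and 2.49-fold. Slc25a4, the ADP/ATP carrier, had the largest ratio of the list, with 763 and 587 CPM in muscle cells, against 1.44 and 1.31 CPM in other barcodes, a ratio of 529- and 449-fold. The median log2 ratio over genes at 20 CPM was 1.25 for oxidative genes, 1.55 for glycolysis and glycogen, 6.75 for thin filament genes and 7.99 for thick filament genes.

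Of 40 regulators of myogenesis, 16 reached 20 CPM and 7 were higher. Mef2ca and mef2aa, transcription factors that bind muscle gene promoters, had 189 and 237 CPM and 322 and 300.5 CPM in muscle cells, with ratios of 10.8- and 15.6-fold and 4.49- and 4.10-fold. Myod1, a muscle determination factor, had 81.8 and 151 CPM in muscle cells of libraries 1 and 2, against 4.54 and 5.46 CPM in other barcodes, and myog, which acts at differentiation, had 79.0 and 109.6 CPM in muscle cells, against 10.6 and 9.18 CPM in other barcodes. Six1b, a homeodomain factor of fast muscle, had 119.9 and 140.4 CPM in muscle cells, against 19.7 and 22.0 CPM in other barcodes. Tbx1, a T-box factor known from pharyngeal muscle, had 38.2 and 42.6 CPM in muscle cells, against 6.95 and 7.04 CPM in other barcodes, and the homeodomain factor pitx3 had 38.2 and 43.3 CPM in muscle cells, against 4.56 and 5.11 CPM in other barcodes. The higher regulators thus stood at low levels in muscle cells, and id1, which in mammals inhibits myogenic factors, had 108 and 124 CPM in muscle cells, against 443 and 432 CPM in other barcodes.

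Of 31 genes of fusion and membrane adhesion, 12 were higher and 1, the adhesion gene ncam1a, lower. Cav3, caveolin of muscle, had 861 and 831 CPM in muscle cells of libraries 1 and 2, against 11.2 and 11.0 CPM in other barcodes, and a UMI in every muscle cell. Its partners cavin4a and cavin4b had 439 and 350.3 CPM and 273 and 258 CPM. Genes of the dystrophin complex, which ties the fibre to its matrix, were among the higher ones: sgcg had 155 and 147 CPM in muscle cells, against 3.25 and 3.67 CPM in other barcodes, sgcd had 188 and 167 CPM in muscle cells, against 21.8 and 21.2 CPM in other barcodes, and dmd, dystrophin, had 88.6 and 86.6 CPM in muscle cells, against 5.62 and 4.69 CPM in other barcodes. Dag1, dystroglycan, was close in both classes, at 62.7 and 109.6 CPM in muscle cells, against 52.5 and 58.2 CPM in other barcodes. Of 20 genes of size and turnover, 3 were higher and 2 lower. The higher ones were the ubiquitin ligase genes trim63b (260.3 and 211 CPM), trim63a (139 and 142 CPM) and fbxo32 (64.0 and 72.8 CPM), whose products mark proteins for breakdown. The lower ones were the growth factor igf2b, with 6.81 and 8.53 CPM in muscle cells, against 94.7 and 107 CPM in other barcodes, and deptor, an inhibitor of mTOR, with 4.09 and 7.22 CPM in muscle cells, against 32.9 and 32.2 CPM in other barcodes. Mstna, a copy of myostatin, the brake on muscle growth, had 0 UMIs in muscle cells of both libraries.

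Outside these lists 241 genes were higher, and the 25 of largest ratio included many with clone-based names. Among the named ones pvalb7, a parvalbumin, had 8274 and 6924 CPM in muscle cells of libraries 1 and 2, against 27.7 and 21.9 CPM in other barcodes. The reticulon genes rtn2a and rtn2b had 184 and 169.9 CPM and 65.4 and 63.6 CPM with ratios of 104- and 80.5-fold and 227- and 269.5-fold. Igfn1.3, an immunoglobulin-domain gene, had 77.7 and 44.6 CPM and was found in only 5 of 29 and 5 of 49 cells. Cdnf, a neurotrophic factor, had 64.0 and 53.1 CPM in muscle cells, against 0.500 and 0.486 CPM in other barcodes.

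The genes of lowest ratio were those of other organs. The pancreatic protease genes ctrb1 and prss1 had 6.81 and 8.53 CPM and 8.18 and 8.53 CPM in muscle cells, against 1867 and 2021 CPM and 1656 and 1798 CPM in other barcodes. Cnmd and col9a2, genes of cartilage, had 8.18 and 5.90 CPM and 10.9 and 11.2 CPM in muscle cells, against 418 and 487 CPM and 542 and 613 CPM in other barcodes. Of 15 cell-cycle genes none was higher and 6 were lower, with the proliferation marker mki67 at 2.73 and 6.56 CPM in muscle cells, against 56.1 and 67.4 CPM in other barcodes. Of 20 genes that respond to tissue dissociation none was higher and 2 were lower, and their summed level was 4013 and 4086 CPM in muscle cells, against 8566 and 8414 CPM in other barcodes. In each list of markers of another cell type 0 genes were higher. The summed fibroblast markers had 752 and 1493 CPM in muscle cells, against 7123 and 7363 CPM in other barcodes, and the summed epidermis markers had 2117 and 2189 CPM, against 9731 and 9405 CPM. CPM share a fixed total, so the high contractile levels of muscle cells leave less of it for all other genes. With the 7 markers left out of the total, 642 genes were lower and 415 higher. These markers summed to 102624 and 92955 CPM in muscle cells of libraries 1 and 2. Actc1b, at 68121 and 65708 CPM, stayed in the total, so this setting removed only part of the contractile UMIs. The part of the fixed total in the single ratios was not tested.

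The transcript of the reporter's own gene, pdgfrb (LL0000021525), was scarce in muscle cells. It had a UMI in 2 of 29 muscle cells of library 1 (6.90%, exact interval 0.846 to 22.8%) and in 8 of 49 of library 2 (16.3%, 7.32 to 29.7%), against 27.5% and 28.1% of other kept barcodes. Its level was 5.45 and 7.87 CPM in muscle cells of libraries 1 and 2, against 54.6 and 57.7 CPM in other barcodes. Barcodes that carried neuron markers, with median depths of 3425 and 3597 UMIs where muscle cells had 21708 and 26711, had a pdgfrb UMI in 6.69% and 3.96% and a level of 13.5 and 13.6 CPM. When each barcode was thinned to 1000 UMIs, 0 of 29 and 0 of 49 muscle cells had a pdgfrb UMI, against 6.77% and 6.97% of other barcodes and 0.279% and 0.198% of neuron-marker barcodes. No barcode was too shallow for this thinning. With 0 cells, 3 counts of the total allow shares of cells with a UMI of up to 10.3% and 6.12%, and the exact intervals reach 11.9% and 7.25%. Muscle cells held 4 and 12 pdgfrb UMIs in all before thinning. The exact intervals of the thinned shares include those of other barcodes and of neuron-marker barcodes. In neither library do the thinned counts alone therefore separate muscle cells from these classes. The summed levels before thinning were lower in muscle cells than in other barcodes in both libraries, which was not tested. The level of the fluorescent reporter itself was not analysed here. Pdgfra, the receptor for PDGF-A, had 5.45 and 9.84 CPM in muscle cells, against 76.3 and 82.7 CPM in other barcodes, and of 9 PDGF genes 0 were higher and 3 lower.

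Muscle transcripts were also found at low counts in barcodes that reached no marker at 10 UMIs. Pvalb1 had a UMI in 44.5% and 46.2% of these barcodes (exact intervals 43.2 to 45.8% and 45.1 to 47.3%), and in 44.3% and 42.2% of neuron-marker barcodes. Pvalb2 had a UMI in 41.5% and 42.6% and actc1b in 38.2% and 40.6%. Myhz2, by contrast, had a UMI in 1.22% and 1.53%, and myhb in 0.839% and 1.03%. The shares of the marker UMIs also differed. Pvalb1 took 25.3% and 24.6% of the 7 markers' UMIs in muscle cells, against 43.0% and 43.8% in barcodes with no marker at 10. Mylpfa took 38.2% and 37.3% in muscle cells, against 15.4% and 15.4%, and tnni2a.4 took 3.77% and 2.56%, against 10.1% and 9.04%. Barcodes with no marker at 10 are capped for these 7 genes by the rule itself, so this is a description of the low counts only. Over all other kept barcodes the shares were 20.5% and 19.2% for pvalb1, 24.5% and 29.6% for mylpfa and 4.49% and 3.76% for tnni2a.4. The part of the low counts in the ratios above was not tested.

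Muscle cells differed widely from each other in parvalbumin and troponin I counts. Each cell was thinned to 5000 UMIs and the variance over the mean was taken across cells for the 109 higher genes with a mean of at least 1 UMI. It was largest for pvalb2, at 499.7 and 774 in libraries 1 and 2, followed among the widest by pvalb1 at 136 and 229, tnni2a.4 at 86.8 and 101 and myhb at 49.7 and 69.7. Pure sampling of equal cells would give a value near 1. The narrowest included myom1a at 1.22 and 1.18, ldb3a, a Z-disc protein gene, at 0.784 and 1.41, and cavin4b at 0.834 and 1.22. Where cells differ, this quantity grows with the mean, and the means differed: pvalb2 averaged 129 and 110 UMIs per thinned cell and ldb3a 1.41 and 1.90 UMIs. Genes of such different levels are therefore not compared by it, and pvalb1 and tnni2a.4 are markers of the rule.

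Every muscle cell but 5 used either tnni2a.4 or tnni2a.1, 2 copies of fast troponin I. This split was chosen after the values were seen, so what follows is a description. At 10 UMIs or more, tnni2a.4 was found in 7 and 8 cells, tnni2a.1 (LL0000030764) in 21 and 37 cells, neither in 1 and 4 cells, and both in no cell. Tnni2a.4 cells had 57 to 642 (median 487) and 39 to 1206 (median 276) UMIs of tnni2a.4, and tnni2a.1 cells had 0 to 6 (median 0) and 0 to 4 (median 0) UMIs of it. Tnni2a.4 cells had at most 1 and 0 UMIs of tnni2a.1, and tnni2a.1 cells had 31 to 458 (median 195) and 14 to 481 (median 233). These ranges follow in part from the definition of the classes. Median depths were 19379 and 25547.5 UMIs in tnni2a.4 cells, against 24886 and 29287 UMIs in tnni2a.1 cells. Markers of another cell type were carried by 2 of 7 and 1 of 8 tnni2a.4 cells, and by 3 of 21 and 14 of 37 tnni2a.1 cells.

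**Figure D3:**
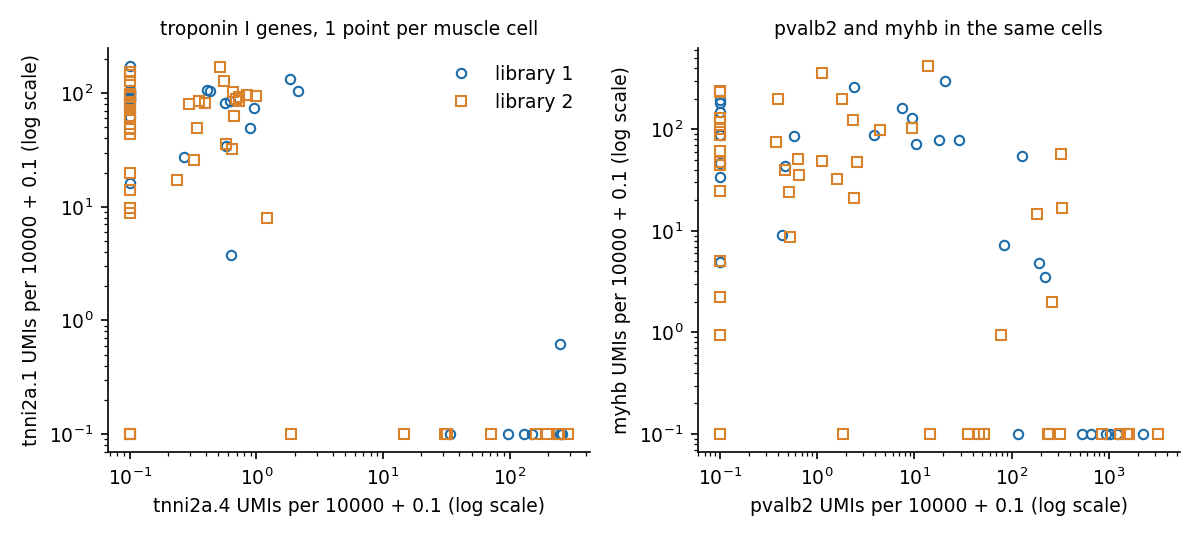
UMIs per 10000 (plus 0.1, log scales) in each of the 78 muscle cells, for library 1 (blue circles) and library 2 (orange squares), with tnni2a.4 against tnni2a.1 on the left and pvalb2 against myhb on the right. In the left panel no cell is high for both troponin I genes; in the right panel cells at the highest pvalb2 values have no myhb UMI.

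Genes were called different between these classes at a 4-fold ratio in both libraries, with at least 50 CPM and a UMI in at least 30% of cells in the higher class. Of 1084 genes past this minimum, 19 (1.75%) were higher and 58 (5.35%) lower in tnni2a.4 cells, both counts including the gene that defines the class. The total of 77 was 43 without the cells carrying markers of another type, and it was 193 without library 1 and 121 without library 2, since then a single library decides. Of the 19 and 58 genes, 14 and 28 were called again without the cells of mixed markers. The keratin genes krt4 and krt91, the retinol carrier rbp4 and tmsb4x were among the 58 and were not called again.

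Fast myosin heavy chain, parvalbumin and tropomyosin copies differed along with troponin I. Myhb had 0 UMIs in all 15 tnni2a.4 cells, against 4 to 1017 (median 181) and 0 to 1046 (median 107) UMIs per cell and 10462 and 7506 CPM in tnni2a.1 cells of libraries 1 and 2, at least 609- and 565-fold lower in tnni2a.4 cells when the class sum is set to 3 counts. Myhz1.1 went the other way, with 11562 and 9960.2 CPM in tnni2a.4 cells, against 281 and 413 CPM in tnni2a.1 cells. Myhz1.2 had 3241 and 3772 CPM in tnni2a.4 cells, against 98.1 and 51.6 CPM in tnni2a.1 cells. Of the parvalbumins, pvalb2 had 115700 and 121497 CPM in tnni2a.4 cells, against 2363 and 4971 CPM in tnni2a.1 cells, a ratio of 49.0- and 24.4-fold. Summed over tnni2a.4 cells it stood above the 58008 and 48123 CPM of actc1b. Single tnni2a.4 cells differed widely, with 189 to 9655 (median 1903) and 3 to 9374 (median 3116) pvalb2 UMIs, so the sum does not describe each cell. Tnni2a.1 cells had 0 to 327 (median 10) and 0 to 1676 (median 2) pvalb2 UMIs. Pvalb7 had 286 and 17.7 CPM in tnni2a.4 cells, against 11137 and 8506 CPM in tnni2a.1 cells, and pvalb4 had 5904 and 881 CPM in tnni2a.4 cells, against 34946 and 25538 CPM in tnni2a.1 cells. Pvalb1, a marker of the rule, had 56227 and 51169 CPM in tnni2a.4 cells, against 17041 and 17501 CPM in tnni2a.1 cells, which is under the 4-fold threshold. Of the tropomyosins, tpma had 13818 and 12284 CPM in tnni2a.4 cells, against 589 and 1513 CPM in tnni2a.1 cells, while tpm2 had 1105 and 341 CPM in tnni2a.4 cells, against 11963 and 11315 CPM in tnni2a.1 cells, tpm1 had 1094 and 159 CPM in tnni2a.4 cells, against 7403 and 5661 CPM in tnni2a.1 cells, and tpm3 had 57.3 and 4.43 CPM in tnni2a.4 cells, against 2915 and 2717 CPM in tnni2a.1 cells. Tpm4b, a further tropomyosin, had 5.73 and 0 CPM in tnni2a.4 cells, against 3228 and 2301 CPM in tnni2a.1 cells.

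Genes of other roles divided between the classes as well. Higher in tnni2a.4 cells were ryr3, a further ryanodine receptor gene, at 384 and 460.4 CPM in tnni2a.4 cells, against 29.6 and 17.5 CPM in tnni2a.1 cells; mylpfb, a copy of the regulatory light chain, at 3653 and 4639 CPM in tnni2a.4 cells, against 622 and 314 CPM in tnni2a.1 cells; and myoz1b, a Z-disc protein gene, at 429 and 429 CPM in tnni2a.4 cells, against 0 and 23.3 CPM in tnni2a.1 cells. Igfn1.3 was found in 5 of 7 and 5 of 8 tnni2a.4 cells and had 0 UMIs in all 58 tnni2a.1 cells, a ratio of at least 58.8- and 121-fold with the class sum set to 3 counts. Lower in tnni2a.4 cells were casq2, at 189 and 164 CPM in tnni2a.4 cells, against 1859.9 and 1497 CPM in tnni2a.1 cells; mybpc1, a myosin-binding protein C, at 11.5 and 8.85 CPM in tnni2a.4 cells, against 905 and 646 CPM in tnni2a.1 cells; fhl2a, a LIM-domain gene, at 0 and 0 CPM in tnni2a.4 cells, against 1958 and 1448 CPM in tnni2a.1 cells; and myoz3a at 34.4 and 22.1 CPM in tnni2a.4 cells, against 513 and 957 CPM in tnni2a.1 cells. The receptor subunit chrng had 22.9 and 4.43 CPM in tnni2a.4 cells, against 117 and 127 CPM in tnni2a.1 cells, but it was not called without the cells of mixed markers.

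Some other fast genes, picked after their values were seen, differed little between the classes. Mylz3 had 14533 and 14050.5 CPM in tnni2a.4 cells, against 14208 and 13592 CPM in tnni2a.1 cells, tnnc2 had 4552 and 3267 CPM in tnni2a.4 cells, against 3827 and 3456 CPM in tnni2a.1 cells, tnnt3a had 1832 and 2049.6 CPM in tnni2a.4 cells, against 2299 and 2402 CPM in tnni2a.1 cells, and ckma had 8183 and 9039 CPM in tnni2a.4 cells, against 7730.3 and 7311 CPM in tnni2a.1 cells. Others differed without being called. Acta1a, an actin, had 521 and 212 CPM in tnni2a.4 cells, against 1171 and 1228 CPM in tnni2a.1 cells. Myhz2, a marker of the rule, had 1832 and 349.7 CPM in tnni2a.4 cells, against 6270.1 and 8192 CPM in tnni2a.1 cells. Tnni2a.4 cells already meet 1 marker of the rule, so tnni2a.1 cells need more of the other markers. Myhz2 reached 10 UMIs in 5 of 7 and 2 of 8 tnni2a.4 cells, and in 21 of 21 and 36 of 37 tnni2a.1 cells. Levels of rule markers in the classes thus depend in part on the rule. Myod1 had 80.2 and 111 CPM in tnni2a.4 cells, against 85.1 and 152 CPM in tnni2a.1 cells. Tbx1 and pitx3, at 49.97 and 54.1 CPM and 49.97 and 49.9 CPM in tnni2a.1 cells, fell short of the 50 CPM minimum in at least 1 library and were not called. Tbx1 had 0 UMIs in all 15 tnni2a.4 cells and a UMI in 14 of 21 and 27 of 37 tnni2a.1 cells, and pitx3 had 0 UMIs in the 15 tnni2a.4 cells and a UMI in 12 of 21 and 25 of 37. With its class sum set to 3 counts tbx1 was at least 2.91- and 4.07-fold lower in tnni2a.4 cells.

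**Figure D4:**
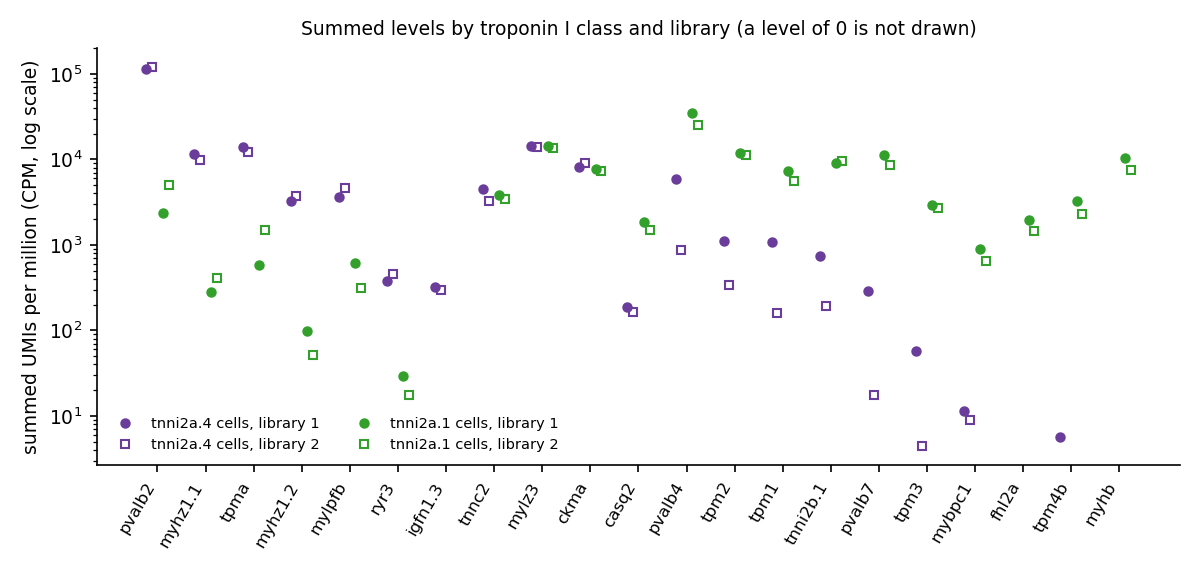
Summed CPM (log scale) of 21 genes in tnni2a.4 cells (purple) and tnni2a.1 cells (green), with filled circles for library 1 and open squares for library 2; levels of 0 are not drawn. Genes on the left, such as pvalb2, are higher in tnni2a.4 cells, those in the middle (tnnc2, mylz3, ckma) are level, and those on the right, ending with myhb at 0 in tnni2a.4 cells, are lower.

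Troponin I copies also differed in their low counts outside muscle cells. In barcodes with no marker at 10 UMIs, tnni2a.4 had a UMI in 13.7% and 13.04% and tnni2a.1 in 0.961% and 0.922%. In neuron-marker barcodes the shares were 15.6% and 13.7% for tnni2a.4 and 0.557% and 1.58% for tnni2a.1. Among muscle cells tnni2a.4 cells were the fewer, with 24.1% and 16.3% against 72.4% and 75.5% for tnni2a.1 cells. Tnni2a.4 is a marker of the rule and tnni2a.1 is not, so these shares depend on the rule. They depend on the mitochondrial limit too. Of the barcodes it removed that met the marker rule, tnni2a.4 reached 10 UMIs in 3 of 5 and in all 4. Barcodes with no marker at 10 UMIs are capped for tnni2a.4 but not for tnni2a.1. The low counts of tnni2a.4 outside muscle cells were thus many where those of tnni2a.1 were few, and the cause was not tested.

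The rule favoured fast fibres. Barcodes with 10 or more UMIs of both smyhc1, the slow myosin heavy chain, and tnnc1b, the troponin C of slow fibres, numbered 10 and 21, and of these 0 and 1 were muscle cells by the rule. Those outside the rule met 1 to 4 of its 7 markers in each library, with medians of 2 and 1.5. They had 8104 and 4567 CPM of smyhc1 and 14572 and 13569 CPM of the light chain gene myl10 in libraries 1 and 2. Their ckma level was 4259 and 2752 CPM, against 7671 and 7367 CPM in the muscle cells described here, and their mylpfa level was 1061 and 139 CPM, against 39239.6 and 34659.7 CPM. Acta1a was above the muscle cells, at 1966 and 1806 CPM against 987 and 1047 CPM. Mybpc1 was near them, at 774 and 505 CPM against 669 and 565 CPM. Desma was below them, at 1411 and 729 CPM against 1570 and 1737 CPM. This class was defined after the values were seen. Its barcodes outside the rule count among the other barcodes above. Of 22 genes of slow fibres, 7 reached 20 CPM in muscle cells of both libraries, and all 7 were higher, among them tpm2, casq2 and mybpc1. The myosin genes of slow fibres were not: smyhc1 had 0 and 266 CPM in muscle cells and a UMI in 0 of 29 and 2 of 49 cells.

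Among genes at 100 CPM or more in either library, the 10 of largest difference between the muscle cells of the libraries rested on part of the cells. Myl10 had 1.36 and 401 CPM in libraries 1 and 2, with a UMI in 1 of 29 and 9 of 49 cells, and myl13, another light chain gene, had 6.81 and 556 CPM, with a UMI in 5 of 29 and 12 of 49 cells. A single muscle cell of library 2, the member that met the slow-marker rule, held most of the 405 smyhc1 UMIs found in muscle cells of that library; its other kept barcodes held 2186. The keratin krt15 had 10.9 and 247 CPM, with a UMI in 4 of 29 and 10 of 49 cells, and and2, an actinodin gene of fin folds, had 28.6 and 321 CPM. Tnn, a tenascin gene, was higher in library 1, with 110.4 and 0.656 CPM and a UMI in 4 of 29 and 1 of 49 cells.

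The bulk libraries gave a measure that the rule did not use. The authors compared um148 with wild-type cells of the citrine reporter, and a positive log2 fold change means higher in um148. The reporter's own gene, pdgfrb, was called lower in um148 (-1.21 ± 0.30, adjusted p 0.00140, authors' deposited table). It was the single call among 9 PDGF genes. Whether the sorts of the genotypes differed with it was not tested. Of the 16853 genes with an adjusted p, the authors' deposited table calls 6.18% higher and 5.13% lower at an adjusted p under 0.05, with a median log2 fold change of 0.02 over all genes listed. As a set, of the 390 genes higher in muscle cells 302 are listed and 279 have an adjusted p; 31 are called higher and 8 lower in the authors' deposited table. Their median log2 fold change is 0.47, and 207 of 302 lie above 0. Of the 766 genes lower in muscle cells 756 are listed, with 23 called higher, 125 lower and a median of -0.30 in the authors' deposited table. The um148 libraries were uneven: taken singly against the wild-type mean that the fold changes imply, with a pseudocount of 1, libraries 1, 2 and 3 gave medians of 0.41, 0.60 and -0.18 for the higher genes. Without library 1 the median was 0.35, without library 2 it was 0.25, and without library 3 it was 0.57. In bulk samples, fewer or more muscle cells in the sort and less or more RNA per cell cannot be told apart.

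Thick filament genes had the most calls of any list. All 23 listed in the authors' deposited table had a log2 fold change above 0, 11 were called, each of them higher, and their median was 1.72. Of all genes with an adjusted p there, 6.18% are called higher. Ttn.2 had a normalized signal of 7021, 18796 and 4048 in um148 libraries 1 to 3, and the authors' deposited table gives it a log2 fold change of 3.47 ± 0.50 (standard error taken from the test statistic) and an adjusted p of 8.91e-10. Library 2 held the highest and library 3 the lowest value. Ttn.1 had 5439.8, 14733 and 3239 and a log2 fold change of 3.0 ± 0.49 in the authors' deposited table (adjusted p 1.95e-07). Myom1a, of the M-band, had 158, 226 and 76.3 and 2.38 ± 0.57 (adjusted p 0.000877, authors' deposited table). Myhz2, the single called marker of the 6 rule markers listed, had 2231, 3282 and 461 and 1.92 ± 0.53 (adjusted p 0.00545, authors' deposited table). For myhz2 and both titins library 3 was again the lowest. The other called genes of the list were smyhc2, mybpc3, myhc4, myom1b, myom2a, myl13 and mybpc2b, with log2 fold changes from 1.66 to 2.47 in the authors' deposited table. Rule markers that were not called had log2 fold changes of 1.26 ± 0.57 for ckma, 0.69 ± 0.48 for mylpfa, 0.22 ± 0.44 for tnnt3b, 0.01 ± 0.55 for acta1b and -0.07 ± 0.81 for pvalb1 in the authors' deposited table, with adjusted p-values of 0.135, 0.377, 0.814, 0.995 and 0.972. Tnni2a.4 is not listed there.

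The thin filament list had a single call, where 6.18% of all genes with an adjusted p are called higher and 5.13% lower. Of 24 listed genes 1 was called in the authors' deposited table, and the median was 0.41. This gene was neb, higher in um148, with 692, 2029.7 and 377 in um148 and a log2 fold change of 2.88 ± 0.53 (adjusted p 5.15e-06, authors' deposited table). Actc1b, the most abundant gene of muscle cells, had 3460.4, 6681 and 913 and 0.72 ± 0.51 in the authors' deposited table, with an adjusted p of 0.392. Among Z-disc and assembly genes 3 of 28 were called higher and 3 lower, with a median of 0.55. The higher ones were pdlim7 (2.92 ± 0.39), obscnb, an obscurin gene (2.04 ± 0.55), and klhl41a (1.47 ± 0.52), and the lower ones were klhl41b (-2.96 ± 0.45), tcap (-2.40 ± 0.48) and myoz2a (-1.74 ± 0.58), all as log2 fold changes of the authors' deposited table. The copies klhl41a and klhl41b, adaptors that in mammals stabilize nebulin, thus differed in direction, with adjusted p-values of 0.0451 and 7.39e-09 there. The difference between the copies was not tested.

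Over all genes with an adjusted p, 11.3% are called in either direction, and the calcium, junction and energy lists held 1 to 3 calls each. Of 26 listed genes of coupling and calcium handling 2 were called higher, ryr1a (2.32 ± 0.67) and srl (1.92 ± 0.66), and 1 lower, sypl2b (-1.09 ± 0.37), in the authors' deposited table. Of 9 junction genes the single call was that of colq, the collagen tail of acetylcholinesterase, which was lower (-1.21 ± 0.36, adjusted p 0.0116). Of 11 creatine and adenylate genes the creatine transporter slc6a8 (2.69 ± 0.40, adjusted p 4.53e-09) and ckmt2a (1.61 ± 0.57) were called higher in the authors' deposited table. In the single-cell libraries slc6a8 had 58.6 and 47.9 CPM in muscle cells, against 15.03 and 13.6 CPM in other barcodes. Of 30 glycolysis and glycogen genes 2 were called higher and 1 lower, and of 42 oxidative genes 1 was called, the cytochrome c gene cycsb, lower (-1.28 ± 0.29), with medians of 0.07 and -0.02 in the authors' deposited table.

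Among regulators 5 of 36 listed genes were called higher and 3 lower, with a median of 0.13. The shares over all genes with an adjusted p are 6.18% called higher and 5.13% lower, which also stand beside the fusion and adhesion count below. Tbx1 had 1092, 1782 and 1404 in um148 libraries 1 to 3 and a log2 fold change of 1.50 ± 0.30 (adjusted p 4.45e-05, authors' deposited table), and its 3 values lay closer together than those of the titins. Pax3a (1.41 ± 0.49) and pax7a (1.16 ± 0.34), factors of muscle precursors, were called higher too, as were mrtfba (1.28 ± 0.29) and met (0.80 ± 0.27), in the authors' deposited table. Prdm1a, which directs the slow fibre fate in zebrafish, was called lower (-1.33 ± 0.31, adjusted p 0.000665), with id1 (-1.03 ± 0.27) and hmga1a (-0.83 ± 0.29). Myod1 had 0.49 ± 0.38 and an adjusted p of 0.444, and myog had -0.06 ± 0.77 and 0.972, both in the authors' deposited table. Of 26 fusion and adhesion genes 3 were called higher: lama2, a laminin chain of the muscle basement membrane (4.55 ± 0.48, adjusted p 4.80e-18), cdh15 (1.28 ± 0.39) and dag1 (1.09 ± 0.24). In the single-cell libraries lama2 had 5.45 and 10.5 CPM in muscle cells, against 2.64 and 2.15 CPM in other barcodes, and was not among the higher genes of muscle cells. Nor were pax3a, pax7a, met, pdlim7, mrtfba and dag1, and which sorted cells carried their bulk change was not tested. The same holds for tbx1, though it was among the higher genes. In the single-cell libraries, made from another reporter line, muscle cells made up 1.39% and 2.07% of the kept UMIs. Tbx1 was also found in other barcodes there, a class that includes barcodes with muscle markers. These values were not measured in the bulk sort.

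Of 18 listed genes of slow fibres 2 were called higher, the slow myosin smyhc2 (2.47 ± 0.59) and myl13 (1.91 ± 0.65), and 2 lower, prdm1a and myoz2a, with a median of 0.88 in the authors' deposited table. Smyhc1 had 2.84 ± 1.15 and an adjusted p of 0.0906 there. Of 14 genes of size and turnover 2 were called higher in the authors' deposited table, acvr2ba, an activin receptor (1.01 ± 0.25), and deptor (0.87 ± 0.31). Beside the counts of both lists, the shares over all genes with an adjusted p are 6.18% called higher and 5.13% lower.

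Genes higher in muscle cells but outside the lists were partly named because they were called in bulk. Their number is therefore no result, and over all genes with an adjusted p 6.18% are called higher and 5.13% lower. Those named and called higher in the authors' deposited table were prr33 (1.42 ± 0.35, adjusted p 0.00142), si:ch211-266g18.10 (1.71 ± 0.37, adjusted p 0.000177) and si:ch73-367p23.2 (1.71 ± 0.59, adjusted p 0.0391). Hspb8, a small heat-shock protein gene (-1.52 ± 0.49, adjusted p 0.0236), parvb, a parvin (-1.54 ± 0.54), rgcc (-1.20 ± 0.34) and cmtm7 (-0.79 ± 0.26) were called lower there. Markers of other cell types were also read from the authors' deposited table. The median log2 fold change was 0.76 over 9 epidermis markers, of which 1 was called higher and 2 lower. It was -0.03 over 10 fibroblast markers, -0.37 over 7 smooth muscle markers and -1.59 over 4 erythroid markers. Of 6 osteoblast markers 3 were called lower, of 7 pericyte markers 2, and of 14 cell-cycle genes 5, with 0 called higher in each list. The single leukocyte marker listed was called higher. The median was -0.79 over 20 genes that respond to tissue dissociation, with 4 called lower. The part of these values in the muscle values was not tested.

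Myhb, tnni2a.1, myhz1.1, pvalb2 and tpma, copies that separated the troponin I classes, were not called in bulk. The authors' deposited table gives log2 fold changes of 1.18 ± 0.48 for myhb (adjusted p 0.0923), 0.06 ± 0.54 for tnni2a.1 (0.964), 1.72 ± 0.89 for myhz1.1 (0.208), -0.08 ± 0.65 for pvalb2 (0.958) and 0.62 ± 0.50 for tpma (0.471). A p that misses the threshold does not show that these genes were alike in the genotypes.

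**Figure D5:**
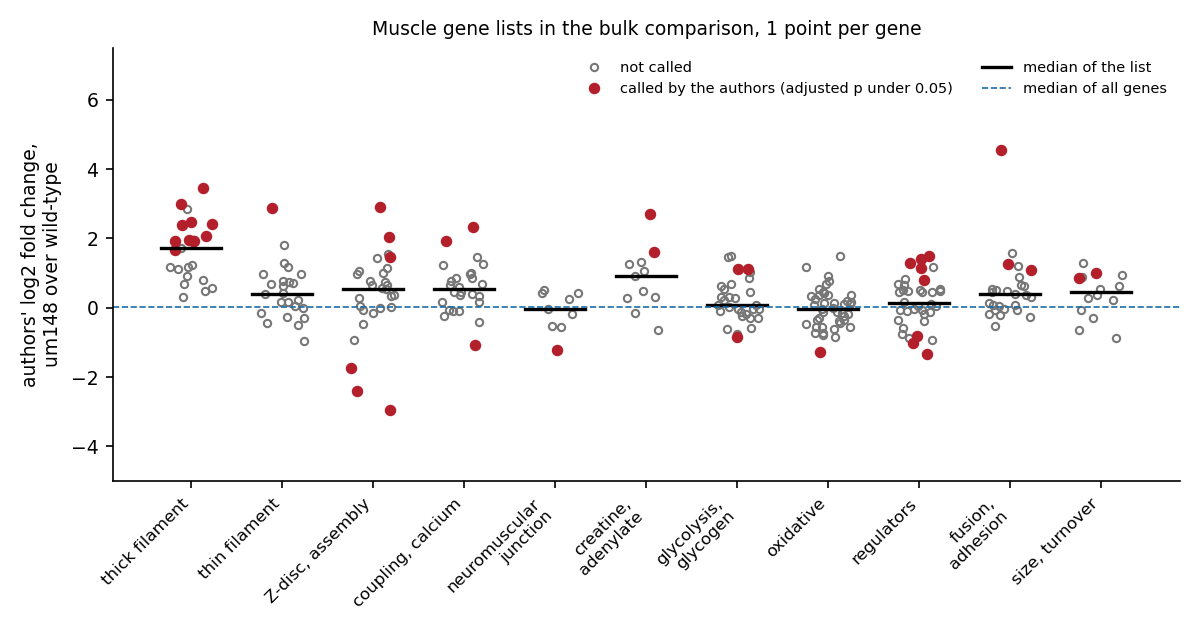
Log2 fold change of um148 over wild-type from the authors' deposited table for the genes of 11 lists, 1 point per gene; red points were called at an adjusted p under 0.05, black bars are list medians and the dashed line is the median of all genes (0.02). Thick filament genes all lie above 0 with a median of 1.72, while oxidative genes are spread around 0.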

How the data were processed

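RNA was measured in 5 samples: 3 bulk um148 libraries and 2 single-cell libraries. The deposited single-cell matrices hold UMI counts of 36351 genes in barcodes already called by the authors, with Cell Ranger 3.1.0 per the file headers. The submitters' processing notes also list CASAVA 1.8.2, STAR, RSEM, DESeq2 and the build GRCz11, with no role given. Positions and strand were not used here. Of 22303 called barcodes, the gene minimum removed 2210 and 1924 (libraries 1 and 2) and the mitochondrial limit 3976 and 407, which left 13786. UMI counts were summed per class and library and scaled to CPM, with a class sum under 3 counts set to 3 in ratios. No doublet caller was applied to the reported values; as an alternative, 282 and 493 barcodes of highest score against simulated doublets (2 per barcode, 30 components) were removed. Members were thinned with a fixed seed to 1000 UMIs for pdgfrb and to 5000 for the spread between cells. The size rule was tested on simulated counts.

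The deposited bulk table gives, for the um148 libraries, a normalized signal: gene counts after division by a factor for each library, by the authors. The same table holds the authors' log2 fold change, its linear fold (ratio), a p-value with its adjusted form, the −log10 of the adjusted form, and a test statistic (a score), each deposited by the authors. The direction was read from the values: as um148 over wild-type the fold changes imply a wild-type total close to that of um148, and the other direction does not. Standard errors are the size of the log2 fold change divided by the square root of the statistic, a reading of that score that was not tested. Genes with an adjusted p of 1 (687) were counted as untested. The 3 columns of wild-type values match no sample label and were not used.

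Muscle cells were described by size and not tested, since the rule chose them and there is 1 single-cell group. Genes were named by a rule: the 7 markers and pdgfrb; of each list up to 8 of highest level, up to 4 of smallest ratio and those called in bulk; outside the lists the 25 of largest ratio; the 10 of highest level, of lowest ratio, of largest difference between libraries, and of widest and narrowest spread; and, of the higher genes called in bulk, the 10 highest and 10 lowest fold changes. The cells, gene lists and tests were chosen with earlier results of these data known. The troponin I classes, the slow-marker class and the alternatives that leave out cells of mixed markers or a um148 library were chosen after values were seen; genes named for the troponin I classes were chosen after their values were seen. Intervals are exact binomial 95% intervals. Python 3.11.15, numpy 2.4.6, scipy 1.17.1, pandas 2.3.3, scikit-learn 1.9.0 and matplotlib 3.10.9 were used.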

Additional observations from a re-analysis of the deposited data

Results flagged for a closer look

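Barcodes removed for a high mitochondrial share, which enter no comparison above, included some that met the muscle marker rule. There were 5 such barcodes in library 1 and 4 in library 2, with mitochondrial shares of 10.3 to 13.6% and 11.0 to 12.3%. They had median depths of 14211 and 14757.5 UMIs and a median of 7.34% and 5.27% of UMIs in the 7 markers. Tnni2a.4 reached 10 UMIs in 3 of the 5 and in all 4, and tnni2a.1 in 1 of the 5 and 0 of the 4, where kept muscle cells had 24.1% and 16.3% tnni2a.4 cells. A limit of 20% adds these barcodes to give 34 and 53 muscle cells. With so few barcodes the difference in troponin I use was not tested.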

How the results depend on the processing

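No paired analysis was possible because no own test between groups was made and only 1 group of single-cell libraries was analysed. The mean share of muscle cells (0.556%) was 0.660% with 5 UMIs per marker, 0.962% with 3 markers, 0.0253% with all 7 markers, 0.677% with 1000 genes detected and 0.410% without cells of mixed markers, and 0.489 to 0.624% by library. The 7-marker setting left 0 cells in library 2 and gave no gene counts. The count of 390 higher genes was 573 and 328 at ratios of 2 and 8, 183 at a 100 CPM minimum, 560 with no minimum level and 424 to 453 with a library left out. Of the 390, 384 were called again without cells of mixed markers. The count of 766 lower genes was 505 with 5 UMIs per marker, 350 with 3 markers, 1230 with doublet scores removed, 1178 without cells of mixed markers, 2045 and 166 at ratios of 2 and 8, 182 at 100 CPM, and 943 to 1330 with a library left out. It therefore depends on these choices more than the count of higher genes. With no minimum level the count of lower genes was 867, and there the count of higher genes moved more. Of the 31 higher genes called higher in bulk, 17 were called at an adjusted p under 0.01, and 17 among genes at or above the table's median level. The median log2 fold change of the 302 listed higher genes was 0.25 to 0.57 with a um148 library left out. The mean share of muscle cells with a pdgfrb UMI (11.6%) was 0 after thinning and 6.90 to 16.3% by library. The 77 genes that differed between troponin I classes were 43 without cells of mixed markers and 121 to 193 with a library left out. Over 237 named genes no called ratio changed direction in any alternative that was run. Most alternatives reuse nearly the same cells, so a change of direction was unlikely from the start. Per gene and alternative, 2720 results were recorded as the same and 1309 as moved, so the named values were not all stable. With 29 and 49 cells, the exact interval of a share of 0 reaches 11.9% and 7.25%. The cause of these changes was not tested.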
